A study of Mus musculus with 24 samples.

Results

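Microglia are the resident macrophages of the brain parenchyma, and perivascular and meningeal macrophages line its borders. The genes described here are 35 that mark or serve these cells. They were taken by symbol from the deposited gene count table of 45706 genes, and all 35 were found there. Of the 35, 34 passed the filter on low counts that left 15667 genes for testing. The one that did not pass was Cd163, the haemoglobin scavenger receptor of border macrophages. The data are RNA-seq libraries of whole hypothalamus from male mice, labelled DIO in the protocol, with a mean body weight of 53 g and housed in pairs. One group of 8 libraries came from mice given the PICK1 inhibitor mPD5 (PICK1i) at 56 mg/kg, a second group of 8 from mice given the PSD-95 inhibitor UCCB01-147 (PSD-95i) at 25 mg/kg, and the third group of 8 from mice given isotonic saline. Both targets are PDZ-domain proteins of synapses: PSD-95 anchors glutamate receptors at the postsynaptic membrane, and PICK1 takes part in the internalisation and intracellular retention of AMPA receptors. All groups shared the same schedule, 1 injection a day for 5 days, with death 2 h after the last one. No lean, unhandled or uninjected group was analysed here. The protocol names 6 saline mice while 8 libraries carry the saline label. The labels do not say that each library came from its own mouse, so p-values measure the spread between these libraries.

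Microglia depend on the CSF1 receptor for survival and on the transcription factors PU.1 (Spi1), IRF8 and SALL1 for their identity. They sense ATP and fractalkine through P2RY12 and CX3CR1, tag synapses and debris with complement C1q, and take up material through receptors such as TREM2 that signal through the ITAM adaptor TYROBP. In the hypothalamus of mice on a fatty diet, microglial number and activation are widely studied as part of local inflammation. In whole tissue, fewer cells of a type and less RNA per cell cannot be told apart, so every level below is that of the tissue.

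The members lie on many chromosomes, with 3 pairs or clusters close together in the GRCm38 annotation (GENCODE M21). C1qa, C1qc and C1qb, which code for the chains of the C1q molecule, stand side by side on chromosome 4, 2851 bases separating C1qa from C1qc and 3616 separating C1qc from C1qb. The purinergic receptor genes P2ry12 and P2ry13 are 5389 bases apart on chromosome 3. Tmem119 and Selplg are 18019 bases apart on chromosome 5. RefSeq promoter windows of GRCm38.p6 were found for 25 of the 35 members, in 29 windows. The PU.1 core, GAGGAA on either strand, occurred in the 250 bases before the start site of 13 of the 25 members and in 14 of their 29 windows. The same letters occurred in 23.3% of all 32851 windows. An interferon-response-like pattern, GAAA and GAAA with 2 bases between them on either strand, occurred in 2 members (Aif1 and Ctss) and in 2.98% of all windows. An ETS-IRF composite, GGAA and GAAA with 2 bases between them, occurred in 0 of the 25 members and in 2.3% of all windows. The last 4 letters of the PU.1 core are the first 4 of this composite, so their matches can overlap. Matches are letters only, not measured sites. The windows of 4 members are shown: C1qb and C1qc, neighbours whose differences from saline were near 0, and Mpeg1 and Sall1, the members with the smallest adjusted p between the inhibitor groups. For Sall1, 1 of 3 windows is shown. Capitals mark the PU.1 core as GAGGAA, or TTCCTC where it lies on the other strand.
C1qb, chr4:136886201-136886450, strand minus: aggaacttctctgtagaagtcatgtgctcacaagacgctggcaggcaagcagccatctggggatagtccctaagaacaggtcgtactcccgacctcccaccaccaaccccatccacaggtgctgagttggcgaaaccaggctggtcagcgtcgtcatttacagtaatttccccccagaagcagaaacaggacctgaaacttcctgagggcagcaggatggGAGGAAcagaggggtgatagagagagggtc
C1qc, chr4:136892915-136893164, strand minus: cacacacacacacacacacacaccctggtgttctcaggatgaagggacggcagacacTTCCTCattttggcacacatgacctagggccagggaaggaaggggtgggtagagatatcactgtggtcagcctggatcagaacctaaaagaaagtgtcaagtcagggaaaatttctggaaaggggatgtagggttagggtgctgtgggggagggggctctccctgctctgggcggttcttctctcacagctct
Mpeg1, chr19:12460520-12460769, strand plus: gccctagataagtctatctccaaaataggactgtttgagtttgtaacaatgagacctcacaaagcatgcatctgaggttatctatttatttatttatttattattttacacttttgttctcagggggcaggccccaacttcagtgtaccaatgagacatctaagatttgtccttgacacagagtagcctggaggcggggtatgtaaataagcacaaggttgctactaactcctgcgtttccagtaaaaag
Sall1, chr8:89044163-89044412, strand minus: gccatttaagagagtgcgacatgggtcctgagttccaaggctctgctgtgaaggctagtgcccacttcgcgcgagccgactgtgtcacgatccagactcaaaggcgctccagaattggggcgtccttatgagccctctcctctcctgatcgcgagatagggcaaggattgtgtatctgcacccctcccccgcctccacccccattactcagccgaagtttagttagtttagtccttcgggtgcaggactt
The windows of C1qb and C1qc each held 1 match. The windows of Mpeg1 and Sall1 held none, which says only that these letters are not in these windows. C1qa is named only.

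Saline replicates 2 and 3 stood apart and bear on every comparison with saline. They held growth hormone transcript (Gh, a product of the anterior pituitary) at 51984 and 32057 CPM, against at most 40.9 CPM in any PSD-95i library and 4.88 CPM in any PICK1i library. CPM is the usual share of a library's total count, with totals scaled by edgeR's TMM method. Both libraries lay below all 6 other saline libraries for 15 of the 35 members: Cx3cr1, P2ry13, P2ry6, Gpr34, Csf1r, Tmem119, Siglech, Fcrls, Selplg, Itgam, Itgb2, C1qa, C1qc, Inpp5d and Laptm5. They lay above all 6 others for 1 member, Cd74. Saline replicate 7 had the highest summed level of 10 leptomeningeal fibroblast genes, 495 CPM, against 49.8 to 343 CPM in the others. PICK1i replicates 1, 2, 5 and 6 had mitochondrial shares of 13.5% to 16.6%, against 7.88% to 11.2% elsewhere, and the most negative slopes of expression on transcript length, -0.172 to -0.0955. Library totals ran from 4762703 to 9228858 counts. Results are therefore given with all 24 libraries and without saline replicates 2 and 3.

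The members were detected in nearly every library, at low to moderate levels. On a per-length scale, in TPM (counts per length, scaled to the same sum in each library) computed from the deposited transcript counts, the highest medians over the 24 libraries were those of C1qa (128 TPM), the lysosomal protease gene Ctss (116 TPM), C1qb (103 TPM) and C1qc (79.2 TPM). Laptm5, a lysosomal membrane protein gene of haematopoietic cells, followed at 48.4 TPM. The canonical microglial genes lay lower: Csf1r at 30.4 TPM, P2ry12 at 22.7 TPM, Trem2 at 21.1 TPM, Tmem119 at 21 TPM and Cx3cr1 at 18.7 TPM. The ranges of these 4 last genes over libraries overlap, so their order is not set by these data. The transcription factor genes were lower still, with Sall1 at 10.8 TPM, Irf8 at 4.68 TPM and Spi1 at 3.71 TPM. Mrc1 and Cd163, which mark border macrophages, were the lowest at 0.469 and 0.36 TPM. Both had a count of 0 in PICK1i replicate 5, where a floor of 3 counts corresponds to 0.494 CPM, for counting error only. Itgam has no per-length value, because 75.9% of its counts lay in a transcript that is not in the annotation used for lengths.

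**Figure D1:**
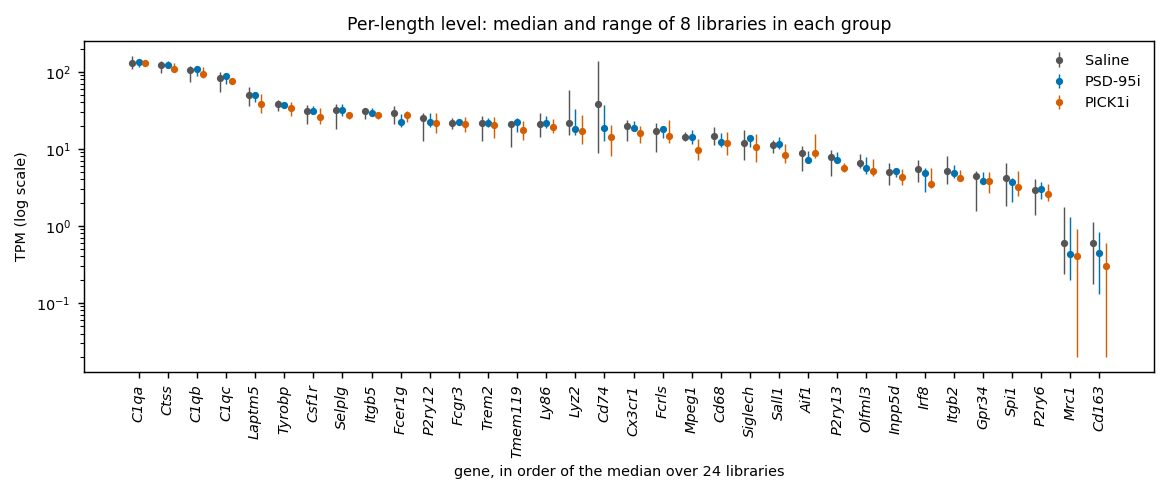
Per-length level of 34 members (Itgam has none) in TPM on a log axis, ordered by the median over 24 libraries; points are group medians of 8 libraries and bars run from the lowest to the highest library. C1qa, Ctss, C1qb and C1qc stand above the rest, and Mrc1 and Cd163 below; bars of these last 2 that end at 0.02 stand for a value of 0.

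The summed level of the set ran from 672 to 955 CPM over the 24 libraries. The summed level of the 35 genes was 723 to 955 CPM in saline (median 824), 732 to 841 CPM in PSD-95i (median 784) and 672 to 915 CPM in PICK1i (median 747). These ranges overlap. The highest total was that of saline replicate 7 and the lowest that of PICK1i replicate 4. PICK1i replicate 1 was the highest of its group for 17 of the 34 tested members, and saline replicate 3 was the lowest of its group for 15. The map of deviations shows both: a column of high values for C1q, TREM2 and Fc receptor genes in PICK1i replicate 1, and low values for receptor and surface genes in saline replicates 2 and 3.

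**Figure D2:**
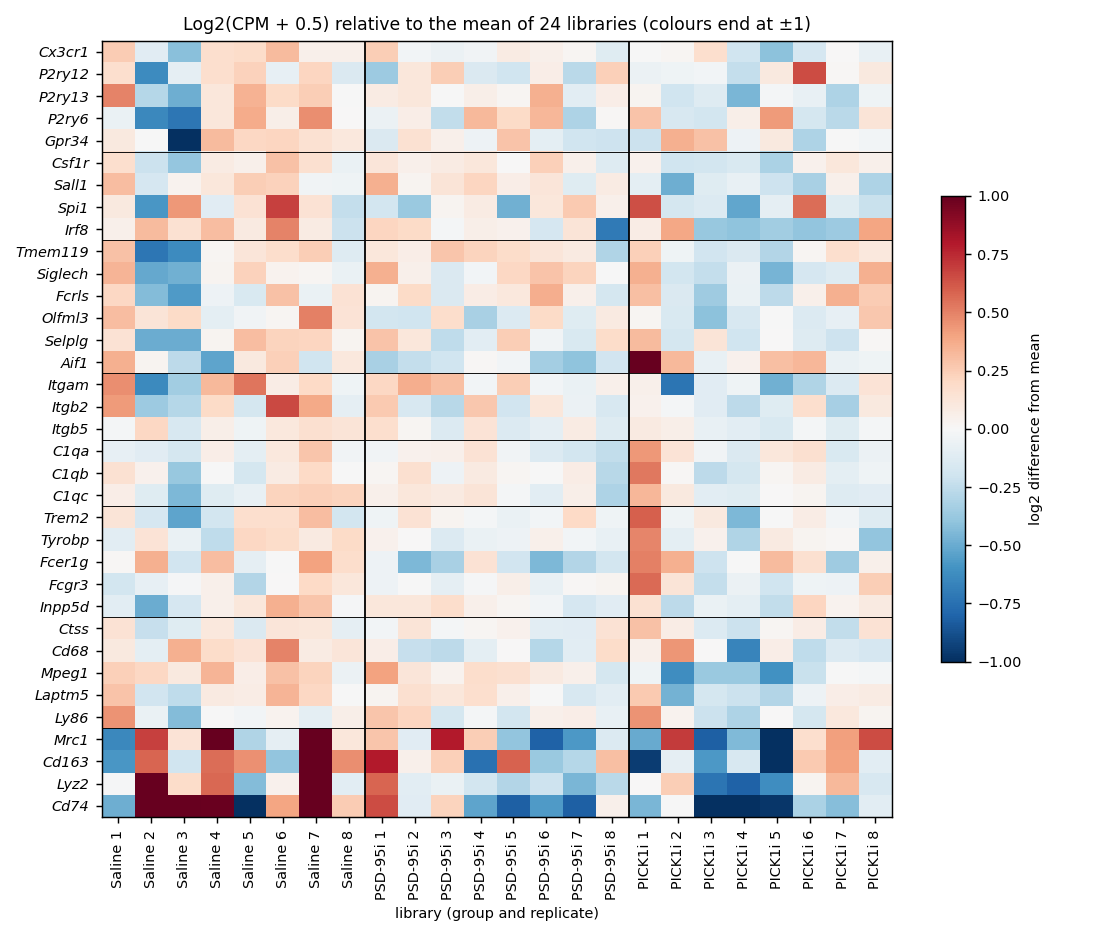
Each of the 35 members (rows, grouped by role between thin lines) in each of 24 libraries (columns, groups separated by thick lines), as log2(CPM + 0.5) minus the mean of the gene over the 24 libraries; colours end at -1 and 1. Saline replicates 2 and 3 are low for the receptor and surface genes, PICK1i replicate 1 is high for the C1q, ITAM and Fc receptor genes, and the 4 border genes at the bottom vary most.

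Against saline, the PICK1 inhibitor was accompanied by lower levels of 3 members and higher levels of none. Mpeg1, the gene of perforin-2, a pore-forming protein of phagosomes, fell to 0.732 of saline. Sall1, a zinc-finger factor that holds microglial identity, fell to 0.822, and Cd74, the invariant chain that escorts MHC class II molecules, to 0.255. Of the members, 3 of 34 members passed an edgeR adjusted p of 0.05, beside 9.15% of all 15667 genes tested, and 3 were lower beside 4.27% of all genes. The members' share is close to the 9.15% called in either direction and above the 4.27% called lower. It rests on 3 genes, and the difference in share was not tested. DESeq2 called 4 members (13.2% of all genes) and limma-voom 2 (7.11%). Across the 34, 24 differences were below 0, with a median log2 fold change of -0.05, beside -0.01 over all genes. At an unadjusted p of 0.05, 7 members passed and all 7 were lower, which is 20.6% beside 28.8% of all genes.

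Without saline replicates 2 and 3, none of the 35 members passed in that comparison, and 5 of 15820 genes did (0.0316%; 0.0253% higher and 0.00632% lower). The direction of the members was then more uniform: 32 of 35 differences were below 0, with a median of -0.16, beside 0.00 over all genes. The 2 libraries left out both lay below the median of the other 6 saline libraries for 23 members. Leaving them out therefore lowers the differences of those members in itself. At an unadjusted p of 0.05, 13 members passed, all lower, which is 37.1% beside 24.3% of all genes. The smallest edgeR adjusted p among members was 0.054. Members share libraries and depth, so the counts of signs and of unadjusted passes are descriptions. In the same fit 6 of 8 astrocyte markers were below 0, with a median of -0.20, and 4 of them passed an unadjusted p of 0.05, all lower. The 12 endothelial and mural markers had a median of -0.19, and the 10 neuronal and 8 oligodendrocyte markers medians of 0.07 and 0.08. Without saline replicates 2, 3 and 7, a choice made after the data were seen, 31 of 35 were below 0 with a median of -0.16, and again none passed.

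**Figure D3:**
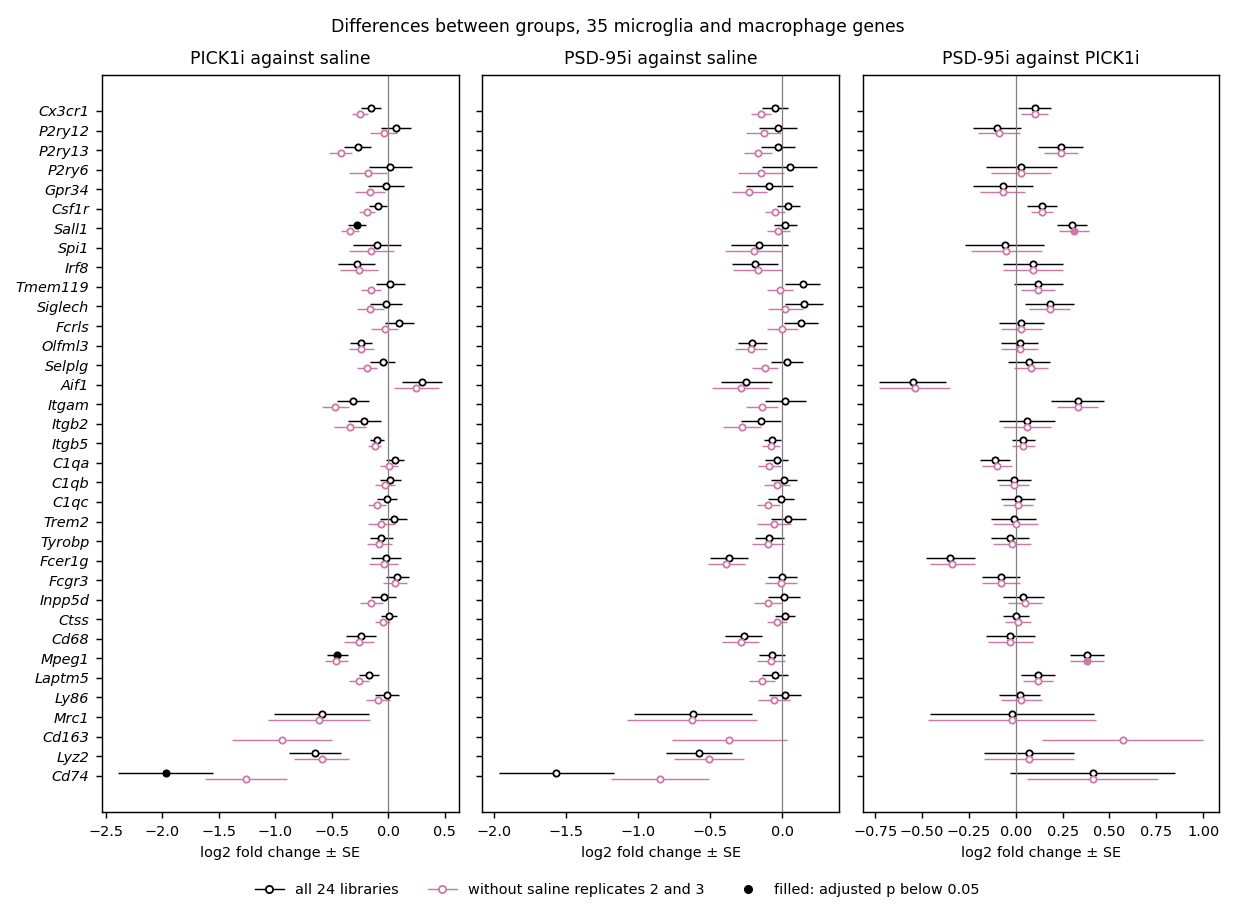
Log2 fold change ± SE (edgeR) of each member in the 3 comparisons, with all 24 libraries (black) and without saline replicates 2 and 3 (pink); filled points have an adjusted p below 0.05. Mpeg1, Sall1 and Cd74 are filled in black for PICK1i against saline, and Mpeg1 and Sall1 are filled in pink for PSD-95i against PICK1i.

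Among the receptors for nucleotides, lysophospholipid and fractalkine, no member passed in any comparison with saline. Cx3cr1, the fractalkine receptor gene, was at 25.6, 37.2 and 42.9 CPM in saline (lowest, median, highest), at 31.6, 34.3 and 40.8 CPM in PSD-95i and at 25.7, 33.5 and 38.7 CPM in PICK1i. The lowest saline values were those of replicates 2 and 3, and without them saline ran from 35.7 to 42.9 CPM. The groups overlap in either case. PICK1i against saline gave a log2 fold change of -0.15 ± 0.09 (SE, edgeR adjusted p = 0.248), and -0.25 ± 0.07 without the 2 libraries (edgeR adjusted p = 0.0735), with 7 of 8 PICK1i libraries below the saline median of 37.2 CPM and 8 of 8 below the median of 38.9 CPM that the other 6 saline libraries gave. P2ry12, the ADP receptor through which microglial processes find injury, was at 11.5, 18.7 and 21.3 CPM in saline, 13.9, 17.6 and 21.5 CPM in PSD-95i and 15.2, 18 and 28.6 CPM in PICK1i. Its groups overlap throughout, and its differences from saline were 0.07 ± 0.13 (PICK1i) and -0.03 ± 0.13 (PSD-95i). P2ry13, a second ADP receptor gene, was below the saline median in 8 of 8 PICK1i libraries at -0.27 ± 0.12, or -0.42 ± 0.10 without the 2 libraries, where its edgeR adjusted p was 0.054. P2ry6, the UDP receptor, and Gpr34, a lysophosphatidylserine receptor, differed by 0.02 and -0.02 in PICK1i and by -0.18 and -0.16 without the 2 libraries. P2ry12 and P2ry13 lie within Med12l on the opposite strand, sharing 9 and 0 exonic bases with it.

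Of the CSF1 receptor and the transcription factors, Sall1 passed. Sall1 was at 25.6, 30.5 and 35.8 CPM in saline, at 26.5, 31 and 37.0 CPM in PSD-95i and at 20.4, 25.7 and 29.9 CPM in PICK1i. All 8 PICK1i libraries lay below the saline median, though the ranges overlap. The difference of PICK1i from saline was -0.28 ± 0.08 (edgeR adjusted p = 0.0336), and -0.34 ± 0.08 without saline replicates 2 and 3, where the edgeR adjusted p was 0.0563. Leaving out any one of saline replicates 1, 3, 4 and 6 or PICK1i replicates 2, 5 and 6 also ended the call, with log2 fold changes from -0.29 to -0.23 and edgeR adjusted p from 0.051 to 0.0758. With the slope on transcript length as a covariate Sall1 differed by -0.18 (edgeR adjusted p = 0.257), and without PICK1i replicates 1, 2, 5 and 6 by -0.21 (edgeR adjusted p = 0.392). Csf1r, the receptor for CSF1 and IL-34, differed by -0.09 ± 0.08 with all libraries and by -0.19 ± 0.07 without the 2 (edgeR adjusted p = 0.102). It ran from 53.1 to 85.3 CPM in saline, 63.4 to 81.8 CPM in PSD-95i and 55.7 to 75.2 CPM in PICK1i. Its exons overlap those of Hmgxb3 on the opposite strand over 15.1% of their length, and the sources used here do not say whether counting used strand. Spi1, coding for PU.1, was at 1.74 to 4.86 CPM in saline and 1.83 to 4.72 CPM in PICK1i, a difference of -0.10 ± 0.21. Irf8, an interferon regulatory factor needed for microglial development, differed by -0.28 ± 0.16 (edgeR adjusted p = 0.253), with 6 of 8 PICK1i libraries below the saline median.

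The surface and secreted markers of homeostatic microglia showed no member that passed. Tmem119, a transmembrane protein used to tell microglia from other macrophages, was at 12.5, 22.1 and 25.8 CPM in saline, 16.9, 22.8 and 25.6 CPM in PSD-95i and 17, 20.8 and 24.8 CPM in PICK1i. Only saline replicates 2 and 3 were below 16.9 CPM. Its difference for PICK1i was 0.02 ± 0.13 with all libraries and -0.15 ± 0.09 without those 2, and for PSD-95i 0.14 ± 0.12 and -0.02 ± 0.09, both changes of sign with edgeR adjusted p of at least 0.334. Siglech, a sialic-acid-binding receptor, Fcrls, an Fc receptor-like gene, and Selplg, the P-selectin ligand, differed by -0.02, 0.10 and -0.05 in PICK1i. Without the 2 libraries they differed by -0.16, -0.03 and -0.19. Olfml3, a secreted olfactomedin protein, was -0.24 ± 0.10 in PICK1i and -0.21 ± 0.10 in PSD-95i (edgeR adjusted p = 0.128 and 0.437).

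Aif1, which codes for the actin-bundling protein IBA1, the usual stain for microglia, was counted at only 13 to 32 per library. It was at 1.73, 2.86 and 3.61 CPM in saline, 1.94, 2.26 and 2.74 CPM in PSD-95i and 2.55, 3.14 and 6.30 CPM in PICK1i. The PICK1i maximum was that of replicate 1, and the next highest was 3.55 CPM. The difference from saline was 0.30 ± 0.18 in PICK1i (edgeR adjusted p = 0.272), and it was -0.05 when PICK1i replicates 1, 2, 5 and 6 were left out. It was -0.25 ± 0.18 in PSD-95i, where all 8 libraries lay below the saline median.

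The integrins are the chains through which myeloid cells bind complement fragments and matrix. Itgam (CD11b) was at 12.3, 21.5 and 28.4 CPM in saline, 18.5, 21.3 and 25.2 CPM in PSD-95i and 11.5, 17.7 and 21.4 CPM in PICK1i. All 8 PICK1i libraries lay below the saline median, though the ranges overlap. The difference for PICK1i was -0.31 ± 0.14 (edgeR adjusted p = 0.153), and -0.47 ± 0.12 without the 2 saline libraries (edgeR adjusted p = 0.0576). Exons of Gm49368, annotated on the same strand, cover 68.7% of the Itgam exons. A transcript that the annotation assigns to Gm49368 was counted within Itgam, with 5.13% of the Itgam counts. A further 75.9% lay in a transcript that is not in the annotation used for lengths. The Itgam level is therefore that of these transcripts together. The partner of Itgam, Itgb2 (CD18), differed by -0.21 ± 0.15, or -0.34 ± 0.14 without the 2 libraries. Itgb5, an integrin chain that other brain cells also make, differed by -0.10 ± 0.06.

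No C1q chain passed the test in any comparison. C1qa was at 62.9, 68.5 and 86.3 CPM in saline, 60.2, 69.7 and 79.0 CPM in PSD-95i and 64.2, 73.3 and 96.7 CPM in PICK1i. The 3 groups overlap over most of their ranges, and the highest library was PICK1i replicate 1. C1qa, C1qb and C1qc differed from saline by 0.06, 0.02 and -0.01 in PICK1i and by -0.04, 0.01 and -0.01 in PSD-95i. The 95% intervals for PICK1i were -0.10 to 0.23, -0.17 to 0.21 and -0.19 to 0.17. Without the 2 saline libraries the 6 differences ran from -0.10 to 0.01.

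**Figure D4:**
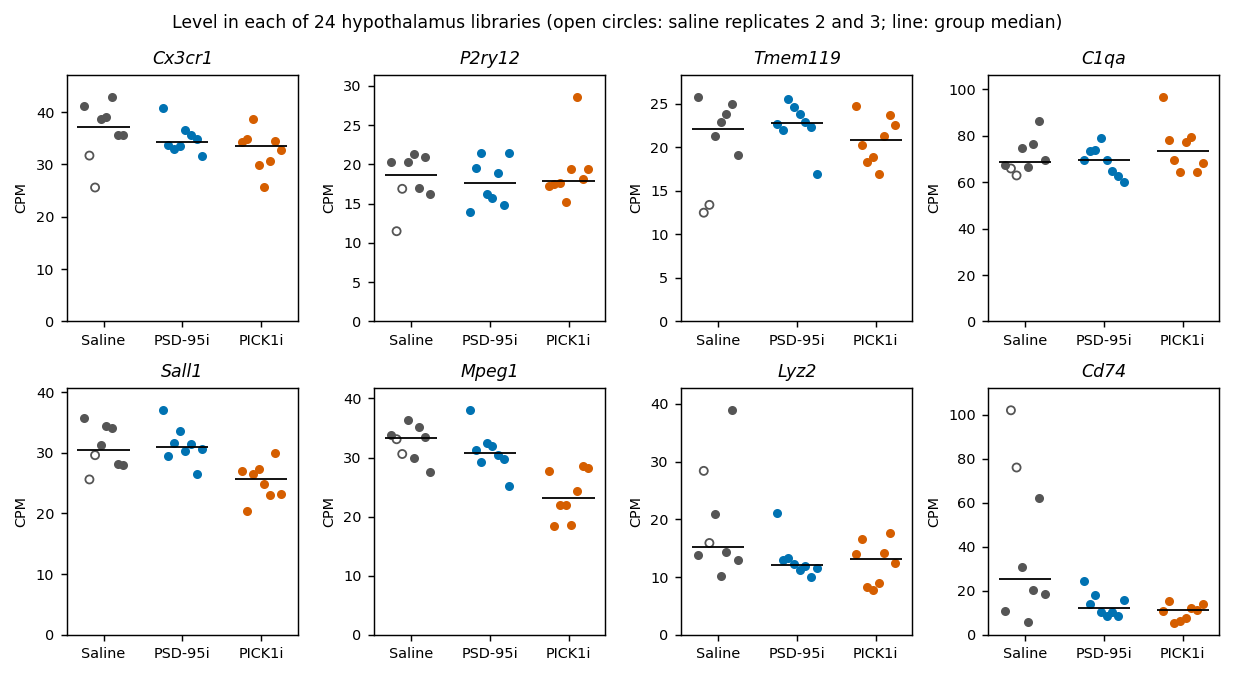
Level in CPM (linear axes from 0) of 8 members in each of the 24 libraries, by group; horizontal lines are group medians and open circles are saline replicates 2 and 3. Mpeg1 and Sall1 are lower in most PICK1i libraries, Cx3cr1 and Tmem119 are lowest in the 2 open circles, C1qa overlaps throughout, and Cd74 is highest in saline replicates 2, 3 and 7.

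The ITAM and Fc receptor genes likewise held no member that passed. Trem2, the lipid-sensing receptor of phagocytic microglia, was at 7.87, 11.4 and 14.4 CPM in saline, 11, 11.3 and 13.3 CPM in PSD-95i and 8.32, 11.4 and 17.7 CPM in PICK1i. Its difference was 0.05 ± 0.12 in PICK1i and 0.04 ± 0.12 in PSD-95i. The adaptor Tyrobp differed by -0.06 and -0.09, the Fc receptor Fcgr3 by 0.08 and 0.00, and the phosphatase Inpp5d (SHIP1), which damps these signals, by -0.04 and 0.01. Fcer1g, the gamma chain shared by Fc receptors, was at 7.70, 9.53 and 11.9 CPM in saline, 6.38, 7.43 and 9.88 CPM in PSD-95i and 6.85, 9.61 and 12.8 CPM in PICK1i. Its PSD-95i level was below the saline median in 7 of 8 libraries, at -0.37 ± 0.13 (edgeR adjusted p = 0.356).

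Among the lysosomal and phagocytic genes, Mpeg1 passed. Mpeg1 was at 27.5, 33.3 and 36.3 CPM in saline, 25.2, 30.8 and 38.0 CPM in PSD-95i and 18.4, 23.2 and 28.5 CPM in PICK1i. All 8 PICK1i libraries lay below the saline median and 3 of them lay above the lowest saline library. The difference was -0.45 ± 0.09 (95% interval -0.64 to -0.26, edgeR adjusted p = 0.0175). It was -0.46 ± 0.10 without saline replicates 2 and 3, which were at 33.1 and 30.6 CPM, and the edgeR adjusted p was then 0.054. With PICK1i replicates 1, 2, 5 and 6 left out it was -0.37 (edgeR adjusted p = 0.367), and with the slope on transcript length as a covariate -0.36 (edgeR adjusted p = 0.127). Mpeg1 differed by -0.07 ± 0.09 in PSD-95i. Cd68, a lysosomal glycoprotein that rises in phagocytic cells, was at 6.72 to 10.4 CPM in saline, 5.84 to 8.26 CPM in PSD-95i and 4.37 to 9.98 CPM in PICK1i. It differed by -0.24 ± 0.13 in PICK1i and -0.27 ± 0.13 in PSD-95i (edgeR adjusted p = 0.201 and 0.434), and lay below the saline median in 7 of 8 libraries of each group. Ctss, Ly86 and Laptm5 differed by 0.01, -0.01 and -0.17 in PICK1i and by 0.02, 0.02 and -0.05 in PSD-95i.

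Transcript length moved with the PICK1i differences of the members as it did in other genes. Across the 33 tested members with a length, Spearman's rho between length and log2 fold change for PICK1i against saline was -0.42, and across 15438 other genes -0.365. Genes share libraries and depth, so these values are descriptions. The 19 members shorter than 2000 bases had a median of -0.01 and the 14 longer ones -0.19. Mpeg1 (4334 bases) and Sall1 (5265 bases) are among the longer ones. With the slope as a covariate, whose most negative values are all in PICK1i libraries, none of the 34 members and none of the 15667 genes passed by edgeR. This fit cannot fully tell the slope apart from the treatment. No measure of RNA quality was used here, and its part in the Mpeg1 and Sall1 results was not tested.

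The border macrophage and antigen presentation genes varied most. Cd74 was at 6.01, 25.6 and 102 CPM in saline, 8.47, 12.3 and 24.3 CPM in PSD-95i and 5.51, 11.2 and 15.3 CPM in PICK1i. The 3 highest saline libraries were replicate 2 at 102 CPM, replicate 3 at 76.0 CPM and replicate 7 at 62.0 CPM, while the lowest, replicate 5, lay within the PICK1i range and below every PSD-95i library. The difference for PICK1i was -1.97 ± 0.42 (edgeR adjusted p = 0.0181). It was -1.26 ± 0.36 without replicates 2 and 3 (edgeR adjusted p = 0.0716) and -0.73 ± 0.31 without replicates 2, 3 and 7 (edgeR adjusted p = 0.157). For PSD-95i the values were -1.57 ± 0.40, -0.85 ± 0.34 and -0.33 ± 0.30. With all saline libraries, DESeq2 kept the PICK1i call of Cd74 (-1.97, DESeq2 adjusted p = 0.0018). Limma-voom did not (-1.5, limma-voom adjusted p = 0.0645). The call was also lost with the slope on transcript length as a covariate (-2.18, edgeR adjusted p = 0.114). With only the 2 groups compared it was lost too (-1.98, edgeR adjusted p = 0.093). The class II genes H2-Aa, H2-Ab1 and H2-Eb1 were also highest in saline replicate 2, at 30.7, 31.7 and 46.7 CPM, and were lower in PICK1i by edgeR with all libraries (-1.96, -1.98 and -1.94). Without replicates 2 and 3 they differed by -1.30, -1.32 and -1.23, with edgeR adjusted p of 0.0946, 0.0742 and 0.0768.

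Saline replicates 2, 3 and 7 had summed leptomeningeal levels of 343, 228 and 495 CPM. Saline replicate 4 (252 CPM), PSD-95i replicate 1 (305 CPM) and PICK1i replicate 2 (304 CPM) had higher sums than saline replicate 3, with Cd74 at 30.8, 24.3 and 15.3 CPM against 76.0 CPM. Within their own groups, PSD-95i replicate 1 and PICK1i replicate 2 were the highest for Cd74 and also for the leptomeningeal sum. In saline, replicate 2 was the highest for Cd74 and replicate 7 for the leptomeningeal sum. All 10 genes of that list were below 0 in PICK1i against saline, with 2 passing the edgeR test. The median leptomeningeal sum was 178 CPM in saline, 105 CPM in PSD-95i and 78.1 CPM in PICK1i, with overlapping ranges. Its part in the Cd74 result was not tested. Lymphocyte genes summed to 4.29 to 11.6 CPM in saline, 3.03 to 6.35 CPM in PSD-95i and 2.82 to 6.26 CPM in PICK1i, and Cd3e stayed at or below 0.488 CPM everywhere. Monocyte and neutrophil genes summed to 6.78 to 29.6, 3.41 to 9.37 and 4.82 to 29.5 CPM, and Ccr2 was at 0 in 3 saline, 1 PSD-95i and 3 PICK1i libraries. Their part was not tested either.

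**Figure D5:**
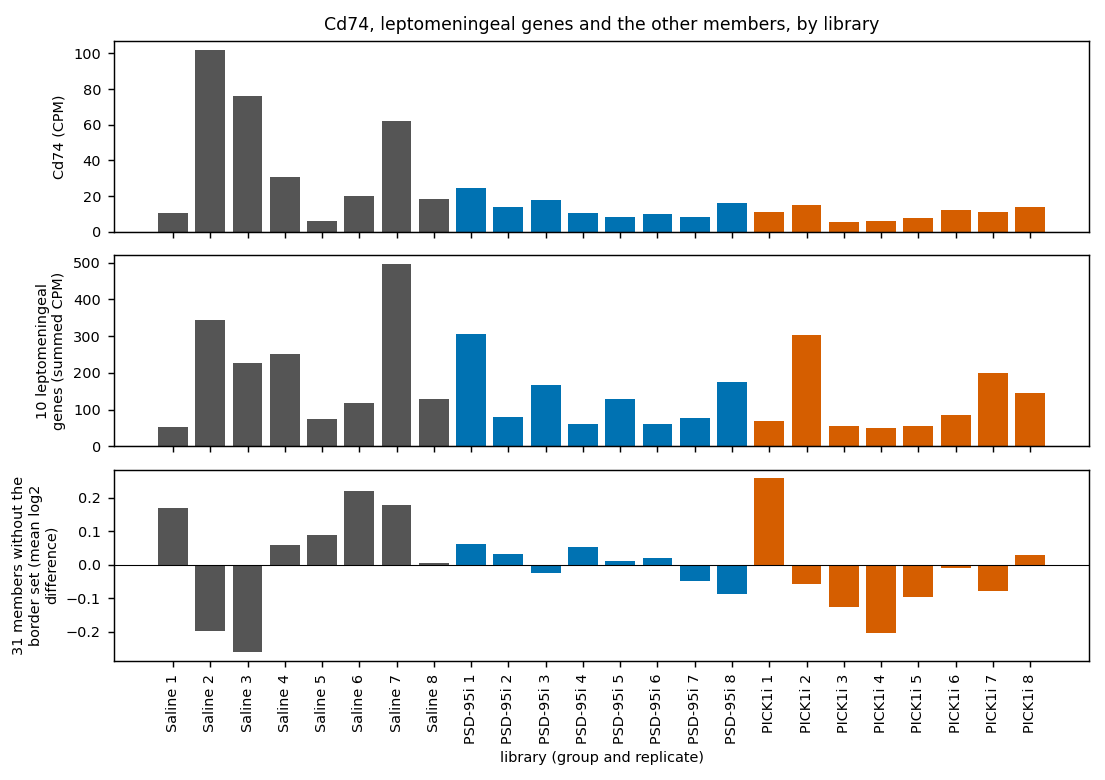
By library, the level of Cd74 in CPM (top), the summed CPM of 10 leptomeningeal fibroblast genes (middle) and the mean log2 difference from the 24-library mean over the 31 members outside the border set (bottom, log2 CPM with a prior count of 2). Cd74 is highest in saline replicates 2, 3 and 7. Leptomeningeal sums higher than that of saline replicate 3 also occur in saline replicate 4, PSD-95i replicate 1 and PICK1i replicate 2. PSD-95i replicate 1 and PICK1i replicate 2 are the highest of their groups in the top and middle panels. The other members are lowest in saline replicate 3, PICK1i replicate 4 and saline replicate 2.

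Lyz2, the macrophage lysozyme, was at 10.2, 15.2 and 38.9 CPM in saline, 10, 12.1 and 21.1 CPM in PSD-95i and 7.75, 13.2 and 17.6 CPM in PICK1i. Saline replicate 7 gave the 38.9 CPM. The difference for PICK1i was -0.65 ± 0.23 (edgeR adjusted p = 0.0708) and fell in size to -0.22 ± 0.20 without saline replicates 2, 3 and 7. Its near-copy Lyz1 was at 0.638 CPM or less in every library. Mrc1, the mannose receptor of border macrophages, was at 0.668, 1.49 and 4.59 CPM in saline, 0.543, 1.17 and 2.66 CPM in PSD-95i and 0, 1.20 and 2.46 CPM in PICK1i. Its difference for PICK1i was -0.59 ± 0.42. Cd163 was at 0.401, 1.35 and 2.55 CPM in saline, 0.304, 0.989 and 1.83 CPM in PSD-95i and 0, 0.727 and 1.28 CPM in PICK1i. It did not pass the filter on low counts with all libraries. Without saline replicates 2 and 3 it did, and the PICK1i difference was -0.94 ± 0.44 (edgeR adjusted p = 0.187) with 8 of 8 libraries below the saline median. Of other border macrophage markers, Pf4 reached at most 0.443 CPM, Lyve1 2.30 CPM, Cbr2 2.66 CPM, Ms4a7 3.13 CPM and F13a1 5.10 CPM, while Stab1 ran from 8.19 to 18.6 CPM.

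Against saline, the PSD-95 inhibitor gave no member that passed, and no gene of the 15667 did (0%) by edgeR. DESeq2 and limma-voom also called none. At an unadjusted p of 0.05, 1719 genes (11%) and 5 members passed in edgeR: Olfml3, Fcer1g, Cd68, Lyz2 and Cd74, all lower. Of the 34, 20 were below 0 with a median of -0.04. Without saline replicates 2 and 3, 33 of 35 were below 0, with a median of -0.13 beside 0.00 over all genes, and 6 members passed an unadjusted p of 0.05, all lower (17.1% beside 2.45% of all genes). The edgeR adjusted p was 1.0 for each. This comparison shares its saline libraries with that of PICK1i, whose median was -0.16 in the same libraries, so the directions are not independent of each other. Both were also shifted downward by leaving out 2 saline libraries that were low for many members.

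Set directly against each other, the members with the smallest adjusted p between the inhibitor groups were Mpeg1, Sall1 and Aif1. With all libraries no gene passed by edgeR (0%), while 3789 did at an unadjusted p of 0.05. DESeq2 called 1359 genes (13.7% of those with an adjusted p) and limma-voom 429 (2.74%), and each called 2 members, Mpeg1 and Sall1. DESeq2 gave an adjusted p to only 19 of the 34 members here, and limma-voom to all 34. PSD-95i minus PICK1i was 0.38 ± 0.09 for Mpeg1 and 0.30 ± 0.08 for Sall1, each with 8 of 8 PSD-95i libraries above the PICK1i median and an edgeR adjusted p of 0.0513. Both passed when saline replicates 2 and 3 were left out of the fit, at 0.38 ± 0.09 (edgeR adjusted p = 0.0324) and 0.31 ± 0.08 (edgeR adjusted p = 0.0336), beside 7.64% of all genes called, 4.13% higher and 3.5% lower. The saline libraries enter this contrast only through the shared estimate of spread, the filter and the scaling. With no saline library in the fit, neither passed: the edgeR adjusted p was 0.0784 for both, and 0 of 15190 genes were called. With the slope on transcript length as a covariate the differences were 0.27 for Mpeg1 and 0.18 for Sall1, and without PICK1i replicates 1, 2, 5 and 6 they were 0.30 and 0.23, with edgeR adjusted p of 1.0 in each case. In limma-voom with random blocks the adjusted p were 0.0701 and 0.0858. Aif1 was lower in PSD-95i by -0.55 ± 0.18 (edgeR adjusted p = 0.0792), with 8 of 8 libraries below the PICK1i median. Itgam was 0.33 ± 0.14 and Fcer1g -0.35 ± 0.13 (edgeR adjusted p = 0.157 and 0.103). Over the 34, 12 were below 0 and the median was 0.03. Spearman's rho between length and difference was 0.55 across the 33 members with a length and 0.495 across the other genes.

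Of 40 further microglial identity genes, 37 were tested, and with all libraries 5 fell and none rose in PICK1i against saline, beside 9.15% of all genes called and 4.27% lower, the background for each of these lists. They included Ptprc, the CD45 phosphatase (-0.74 ± 0.16), Dock8, a guanine nucleotide exchange factor (-0.53 ± 0.14), Nckap1l, a part of the actin-regulating WAVE complex (-0.45 ± 0.11), and Cmtm6 (-0.39 ± 0.10), with edgeR adjusted p from 0.0181 to 0.0234. The median of the 37 was -0.14. Of 33 genes of activated or disease-associated microglia, 23 were tested, 3 fell and none rose: Cybb, the catalytic subunit of the phagocyte oxidase (-1.80 ± 0.38), Lpl, lipoprotein lipase (-1.40 ± 0.41), and Axl, a receptor for dying cells (-0.24 ± 0.08). Cybb was highest in saline replicate 2, at 5.79 CPM. Of 13 ligands of microglial receptors, all were tested and none passed, with a median of 0.00. Of 16 further border macrophage genes, 7 were tested and 3, the class II genes above, fell. Without saline replicates 2 and 3, where 5 of 15820 genes passed, no gene of these 4 lists passed in PICK1i against saline. Ptprc, Dock8 and Nckap1l then differed by -0.73, -0.58 and -0.43, Cmtm6 by -0.24 and Cybb by -1.40, and 28 of the 37 identity genes were below 0 with a median of -0.16. In PSD-95i against saline none passed with or without them.

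In the transcript table, 9 members had a single transcript, and the leading transcript held over 90% of counts in 14 of the 35. It was annotated as protein coding in 32 members. In Siglech and Itgb2 the leading transcript, with 55.4% and 62.6% of counts, was annotated as subject to nonsense-mediated decay. In Trem2 a retained-intron transcript held a mean share of 27.3% ± 3.18 (SD, n = 8) in the saline libraries, 24.7% ± 5.38 with PSD-95i and 23.4% ± 7.92 with PICK1i. In Cd74 the main transcript held 63.0% ± 3.51, 62.7% ± 4.68 and 57.8% ± 3.83. These shares are estimates from short reads and were not tested.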

How the data were processed

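Libraries were prepared with a stranded poly-A protocol and sequenced as 52 bp pairs, per the labels' protocols. The authors deposited gene and transcript tables of estimated counts (expected counts), made with bcl2fastq 2.20.0, STAR and Salmon on GRCm38, per the submitters' processing notes; whether counting used strand, and the annotation release, is not given in the sources used here. Whole numbers (within 0.001) made up 94.3% of gene values, and the rest were rounded to whole counts. No 2 libraries were identical, and the smallest chi-square per degree of freedom between replicates was 2.71.

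Genes passed edgeR's filterByExpr (minimum count 10), which kept 99.3% of counts. All 24 libraries entered 1 quasi-likelihood fit with TMM scaling (edgeR 4.0.16, R 4.3.3; 21 residual degrees of freedom), and p-values were adjusted by Benjamini-Hochberg over all 15667 genes. The biological coefficient of variation was 14.4%. Lengths and coordinates came from GENCODE M21; genes with under 80% of counts in its transcripts got no length. TPM used the deposited transcript counts. The fit was tested on simulated data for the 3 comparisons. It called 63% to 74% of genes changed 1.5-fold and 91% to 93% of genes changed 2-fold. The rest of the changed genes were missed, so a member that did not pass may still differ by 1.5-fold or more. Smaller changes were not simulated. The changed genes were drawn from all genes tested, so these rates are not those of members with low counts. DESeq2 1.42.0, limma 3.58.1 and sva 3.50.0 served as alternatives. Members, role groups and lists were chosen with earlier results of these data known. The members described with full values are 15 named by a fixed rule (Cx3cr1, P2ry12, Tmem119, Csf1r, Aif1, C1qa, Trem2, Cd68, Cd74, Mrc1, Cd163, Mpeg1, Spi1, Irf8 and Sall1), and others were added after their values were seen. One gene of the wider lists, Vsir, had no row under that symbol.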

Additional observations from a re-analysis of the deposited data

Results flagged for a closer look

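Within the 102 groups of 8 libraries (34 members in 3 groups), 9 had 1 library far from the rest, with a gap to its nearest neighbour above Dixon's 95% critical share of the group's range. Chance alone flags about 1 in 20 groups. The levels are in CPM and no cause was tested.

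In saline, P2ry12 was 11.5 in replicate 2, below the others at 16.3 to 21.3, and Gpr34 was 1.67 in replicate 3, below 3.94 to 5.06. In PICK1i, Aif1 was 6.30 in replicate 1, above 2.55 to 3.55, and C1qb was 82.9 in the same replicate, above 47.8 to 60.9. P2ry12 was 28.6 in PICK1i replicate 6, above 15.2 to 19.4. In PSD-95i, Irf8 was 3.10 in replicate 8, below 4.75 to 6.35, and Tmem119 was 16.9 in the same replicate, below 22 to 25.6. P2ry13 was 11.5 in PSD-95i replicate 6, above 8.23 to 9.64, and Lyz2 was 21.1 in PSD-95i replicate 1, above 10 to 13.3.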

How the results depend on the processing

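Members called in PICK1i against saline numbered 3 with all libraries. The count was 1 in limma-voom with neighbouring library numbers as random blocks and 1 with 2 surrogate variables, and 0 in 6 settings: only the 2 groups compared, the length slope as a covariate, and leaving out saline replicates 2 and 3, PICK1i replicates 1, 2, 5 and 6, all 6 of these, or saline replicates 2, 3 and 7. Leaving out 1 library gave 2 to 4. For PSD-95i against PICK1i the count was 0 with all libraries and 0 with only the 2 groups compared. It was 2 with a minimum count of 50, with DESeq2, with limma-voom, and without saline replicates 2 and 3 or 2, 3 and 7. With 2 surrogate variables it was 3, and leaving out 1 library gave 0 to 4. For PSD-95i against saline it was 0 in every setting run. Over all genes, PICK1i against saline went from 1434 calls to 316 with the random blocks, 129 with surrogate variables, 5 without saline replicates 2 and 3, and 0 in the other 5 of those 6 settings; leaving out 1 library gave 299 to 2757. PSD-95i against PICK1i went from 0 to 665 (minimum count 50), 1359 (DESeq2), 429 (limma-voom), 1539 (surrogate variables), 1208 (without saline replicates 2 and 3), 1015 (also without replicate 7) and 0 to 2315 (leaving out 1). Changes of sign were tracked only for called values or values above their own standard error; 101 of 1247 values of named members changed sign, 10 of them above the error. Those 10 were Cx3cr1 (-0.01) and C1qa (0.06) in PSD-95i against PICK1i and Aif1 (-0.01) in PICK1i against saline with the length slope; Tmem119 in PSD-95i against saline (-0.02) with 2 surrogate variables, without saline replicates 2 and 3, and without those and the 4 PICK1i libraries; Aif1 in PICK1i against saline without the 4 PICK1i libraries (-0.05) and without all 6 (-0.08); and C1qa in PSD-95i against PICK1i (0.05) in these last 2 settings. The cause of these changes was not tested. With the replicate block in edgeR the counts were 3, 0 and 0 and no call of a member changed; same-numbered libraries did not deviate together (5 of 24 pairs above a correlation of 0.1, from -0.194 to 0.15; 1 library correlated best with its own number). Depth limits Aif1, Spi1, P2ry6, Mrc1 and Cd163, whose median counts were 19, 20, 21, 8 and 6.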
